A study of Mus musculus with 2 samples.

Results

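The genes described here encode the enzymes that clear foreign compounds, together with cytochrome P450 genes other than the steroid and cholesterol synthesis genes named below. Cyp17a1 and Cyp19a1, which also act in steroid synthesis, fit the naming rule, though only Cyp17a1 was read. They were chosen by name and by reads: a protein-coding gene with at least 1 read in either library, named as a P450 (Cyp), glucuronosyltransferase (Ugt), sulfotransferase (Sult), carboxylesterase (Ces), flavin monooxygenase (Fmo) or cytosolic or mitochondrial glutathione S-transferase (Gst), or as Ephx1, Ephx2 or Nqo1. The steroid genes Cyp11a1, Cyp21a1, Cyp11b1 and Cyp11b2 and the cholesterol synthesis gene Cyp51 were left out. This gave 67 genes out of 16457 annotated genes with reads, of which 14002 were protein coding. The annotation holds 189 protein-coding genes with such names, so 122 had no read.

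The RNA came from adrenal glands of male mice of the strain B6CASTF1/J at an age of 2 months, in 1 group of 2 libraries, replicates 1 and 2. B6CASTF1/J is an F1 hybrid of a B6 and a CAST parent, and the labels give no treatment and no other genetic change. Long-read sequencing reads transcripts from end to end where they are intact, so levels are counts of reads and are not divided by length. The libraries held 824225 and 656826 reads without spike-ins, of which 800029 and 638310 lay on annotated genes. The biosample labels give the animals different numbers, whereas both library descriptions give the same number, so separate animals are not shown and every p-value below compares these libraries only.

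Clearance of a foreign compound is usually described in phases. P450s, flavin monooxygenases, carboxylesterases and epoxide hydrolases first add or uncover a reactive group. Glutathione S-transferases, glucuronosyltransferases and sulfotransferases then attach glutathione, glucuronic acid or sulfate, and pumps export the product. Liver and kidney are the best known sites. The adrenal cortex is known for P450s that build steroids. Those in mitochondria take electrons from Fdxr and Fdx1, and those in the endoplasmic reticulum from Por, as most drug-metabolising P450s do. The mouse adrenal is known to make corticosterone and to express little of Cyp17a1, the 17-hydroxylase that other species use for cortisol.

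The labelled tissue carried its own markers and little of liver and kidney, which are also rich in P450s. All 6 adrenal cortex markers were read and took 5.52% and 5.44% of the reads in replicates 1 and 2, and all 5 chromaffin cell markers were read. Of 12 liver markers, 7 were read, with 21 and 36 reads in sum, and 16 and 28 of these lay on Serpina3k. The albumin gene Alb had 0 and 1 reads, and Ttr had none. Of 9 kidney markers, 3 were read, with 8 and 6 reads. Adipocyte markers were abundant in both libraries, and all 9 were read.

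Several results turn on sequence, so the relevant stretches are shown first. The mu-class glutathione S-transferases are the best covered group and lie side by side on chromosome 3, and their coding sequences resemble one another. The first 60 coding bases of 4 of them follow, 5′ to 3′, from the GENCODE M21 transcripts, with capitals where a base differs from Gstm1.
Gstm1: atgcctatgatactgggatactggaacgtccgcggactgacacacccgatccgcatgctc
Gstm2: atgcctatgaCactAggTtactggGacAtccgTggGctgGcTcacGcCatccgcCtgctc
Gstm7: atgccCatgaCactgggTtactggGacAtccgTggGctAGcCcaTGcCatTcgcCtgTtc
Gstm4: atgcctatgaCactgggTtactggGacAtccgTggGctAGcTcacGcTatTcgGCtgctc
In this stretch Gstm2 differs from Gstm1 at 12 bases, Gstm7 at 16 and Gstm4 at 14.

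The pi-class pair shows how close 2 read genes can be. Capitals mark the 6 bases of 60 where Gstp2 differs from Gstp1.
Gstp1: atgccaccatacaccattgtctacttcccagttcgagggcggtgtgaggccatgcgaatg
Gstp2: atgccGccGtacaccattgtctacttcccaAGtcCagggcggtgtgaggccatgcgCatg
Over the whole coding sequence they are 98.1% identical. Reads of Gstp1 and Gstp2 could be exchanged where the alignment cannot separate them. For Ugt1a6a and Ugt1a7c, which overlap on the same strand, the longest coding sequence annotated under each name is identical. The transcripts that held their reads differ: Ugt1a6a-202 has 6 exons and starts at 88134809, and Ugt1a7c-201 has 5 and starts at 88095064. Identity was taken from 1 coding sequence per gene, the longest annotated, and need not hold for the transcript that was read. By this measure, among the 57 read genes with a relative to compare, 6 had one at 95% identity or more, Ugt1a6a and Ugt1a7c included. At 80% or more, 26 had one.

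Splice junctions carry the transcript findings. Each line gives 15 bases of the exon before the junction in lower case and 15 bases of the exon after it in capitals, on the strand of the gene.
Fmo1, new combination: cgttaaagaccacaaAGAAACATGGTGAAG
Gstz1-201: atgcaagccgggaagCCTATCCTCTACTCC
Gstz1-204: actatggctgacaagCCTATCCTCTACTCC
Gstm4-201: gcaagcacaacctgtGTGGGGAGACAGAGG
Gstm4, new splice site: tgcgctacattgcccGTGGGGAGACAGAGG
Cyp2d22-201: aacgcaccggtaaagGTAGCTGGAGTTAGG
Cyp2d22, new splice site: tttcagaacgcaccgGTAGCTGGAGTTAGG
Within each pair the exon after the junction is the same, and only the exon before it changes.

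The 67 genes took 3116 reads in replicate 1 and 2013 in replicate 2, or 0.378% and 0.306% of each library. These levels are a description, since reads chose the genes. A few genes held most of this. The most abundant gene took 20.7 ± 0.565% of the reads of all 67 (mean ± SD, n = 2), the top 5 took 54.0 ± 1.32%, the top 10 took 75.3 ± 0.284% and the top 20 took 89.1 ± 0.692%. In CPM, a gene's reads scaled to the same library total, 10 genes stood above 100 and 36 above 10. At the other end, 47 genes were read in both libraries, 14 in replicate 1 only and 6 in replicate 2 only, and each of these 20 had at most 3 reads. With the threshold at 1 read, 10 genes had exactly 1 read in sum, and those just outside had none. A count of 0 allows up to 3.64 CPM in replicate 1 and 4.57 CPM in replicate 2, for counting error only.

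**Figure D1:**
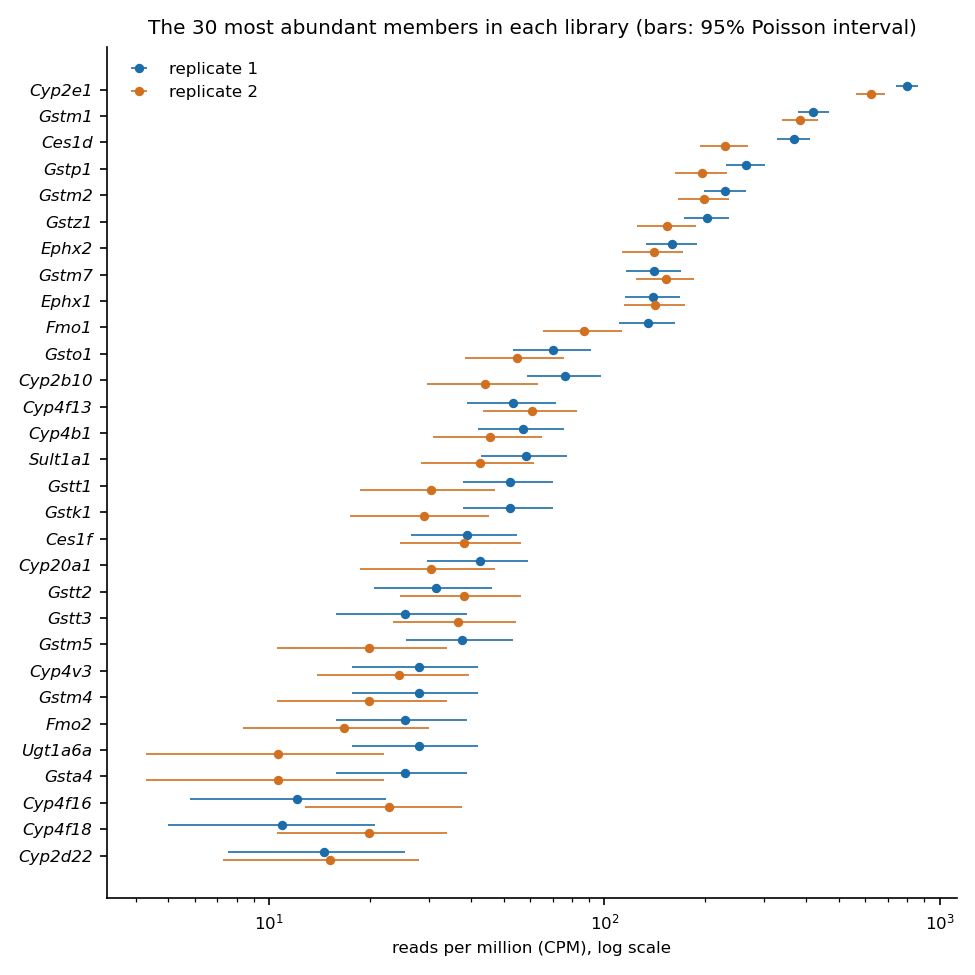
Level of the 30 most abundant of the 67 genes (members) in each library, in CPM on a log axis; points are single libraries and bars are 95% Poisson intervals for counting error. Cyp2e1 stood highest in both libraries, and the intervals widen toward the lower genes, where those of the libraries mostly overlap.

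Oxidising P450s were led by 1 gene. Cyp2e1, which oxidises ethanol, acetone and other small molecules, had 658 and 409 reads, or 798.3 and 623 CPM. By mean CPM it ranked 146th among annotated genes with reads, at 711 ± 124 CPM, and lies at chr7:140763739-140774987 (mm10, plus strand). The same libraries carried abundant adipocyte markers, as given above. The 11 read genes of P450 families 1 to 3 had 763 and 463 reads together, and Cyp2e1 took 86.2% and 88.3% of them. Cyp2b10, known in liver as a phenobarbital-inducible enzyme, followed with 63 and 29 reads, at 60.3 ± 22.8 CPM. Cyp2d22 had 12 and 10 reads, and Cyp1b1, a dioxin-inducible enzyme, had 11 and 2.

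The other classical drug-metabolising P450s were absent or nearly so. Of 61 annotated genes of families 1 to 3, 50 had no read. Cyp1a1 and Cyp1a2, which the dioxin receptor induces, had none, and neither had any of the 9 Cyp3 genes, Cyp3a11 included. The cluster of 14 Cyp2c genes on chromosome 19 gave 2 reads, both on Cyp2c70 in replicate 1. In the cluster of 8 Cyp2d genes on chromosome 15, Cyp2d22 alone was read. The 13 genes of the Cyp2a, Cyp2b, Cyp2f, Cyp2g, Cyp2s and Cyp2t cluster on chromosome 7 gave 65 and 30 reads, nearly all on Cyp2b10, and Cyp2f2 had 1 and 0.

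Fatty acid P450s of family 4 were spread more evenly. Of 20 annotated genes 8 were read, each in both libraries, with 148 and 128 reads in sum, or 187 ± 10.8 CPM. Cyp4f13 had 44 and 40 reads and Cyp4b1, which hydroxylates fatty acids and activates furan toxins, had 47 and 30. Cyp4v3, a fatty acid omega-hydroxylase, had 23 and 16, Cyp4f16 had 10 and 15 and Cyp4f18 had 9 and 13. On chromosome 17, 5 of 8 clustered Cyp4f genes were read. In the cluster of 10 genes on chromosome 4 that holds the Cyp4a genes, which liver and kidney use for fatty acid omega-oxidation, only Cyp4b1 was read.

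Among the P450s that act on steroids, sterols, retinoids or substrates not known, 7 of 14 annotated genes were read, with 56 and 47 reads. Cyp20a1, an orphan P450, had 35 and 20 reads, and Cyp27a1, the mitochondrial sterol 27-hydroxylase, had 11 and 10. Cyp26b1, which breaks down retinoic acid, had 7 and 9 reads, of which 5 and 9 were of the genomic class, that is, reads that fit no spliced transcript. Cyp7b1, an oxysterol 7-alpha-hydroxylase, had 2 and 2. Cyp17a1 had 0 and 3 reads and Cyp46a1, a cholesterol 24-hydroxylase known from neurons, also 0 and 3. No read fell on Cyp19a1, the aromatase gene, or on Cyp39a1.

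Of the other enzymes that act first, carboxylesterases, epoxide hydrolases and Fmo1 stood out by level. Ces1d, a carboxylesterase that also hydrolyses triglycerides, had 302 and 150 reads, at 297 ± 97.6 CPM (chr8:93166068-93197838, minus strand). Ces1f had 32 and 25, and the Ces2, Ces3 and Ces4 cluster of 10 genes had 3 and 3. Ephx2, the soluble epoxide hydrolase that turns over epoxides of arachidonic acid, had 131 and 92 reads, at 149.5 ± 13.3 CPM. Ephx1, the microsomal epoxide hydrolase, had 115 and 93, at 141 ± 1.46 CPM. The epoxide hydrolases differed little between the libraries, at 298 and 282 CPM together. Fmo1, which oxidises nitrogen and sulfur in drugs, had 111 and 57 reads, at 111 ± 33.9 CPM (chr1:162829561-162866610, minus strand), and Fmo2 had 21 and 11. Nqo1, a quinone reductase and textbook target of Nfe2l2, had 2 reads in replicate 1 and 0 in replicate 2.

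Glutathione S-transferases made up the largest share. Their 19 read genes, of 22 annotated, took 1324 and 883 reads, or 43.2 ± 0.972% of the reads of the 67 genes, against 31.4 ± 0.467% for all 26 read P450s. All 7 mu-class genes at chr3:107895821-108044894 were read, with 712 and 511 reads, or 821 ± 60.7 CPM. Gstm1 had 346 and 252 reads (402 ± 25.5 CPM), Gstm2 had 189 and 130 (214 ± 22.2 CPM) and Gstm7 had 116 and 100 (146 ± 8.14 CPM). Gstm5, Gstm4, Gstm6 and Gstm3 were lower, at 31 and 13, 23 and 13, 5 and 3, and 2 and 0 reads. The coding bases printed above separate Gstm1 from Gstm2, Gstm7 and Gstm4 at many positions. Gstm3, the relative closest to Gstm1, is 89.4% identical to it.

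The remaining classes each rested on 1 to 3 genes. Gstp1 had 218 and 128 reads, at 230 ± 49.2 CPM (chr19:4035407-4037985), and its near copy Gstp2 had 8 and 6. Gstz1, which is also maleylacetoacetate isomerase of tyrosine breakdown, had 167 and 101, at 178 ± 34.5 CPM. The theta genes Gstt1, Gstt2 and Gstt3 had 43 and 20, 26 and 25, and 21 and 24 reads. Gsto1 of the omega class had 58 and 36, and Gstk1, the kappa enzyme of mitochondria and peroxisomes, had 43 and 19. The alpha class, prominent in liver, was low: Gsta4, which conjugates lipid aldehydes, had 21 and 7 reads, Gsta3 had 7 and 4, and Gsta2 had 0 and 1.

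Sulfate and glucuronic acid transferases were sparse. Of 21 sulfotransferases 4 were read, with 66 and 42 reads. Sult1a1, a phenol sulfotransferase, had 48 and 28 of these (50.4 ± 11.0 CPM), beside 23 and 11 reads on Sgf29, which overlaps it on the other strand. Sult4a1 had 5 and 10 reads and Sult5a1 had 11 and 4. Sult1e1, which sulfates estrogens, had 2 and 0. None of the 9 Sult2 genes, which include the hydroxysteroid sulfotransferases, had a read. Of 22 glucuronosyltransferases 5 were read, with 31 and 7 reads in sum, and 23 and 7 of these were on Ugt1a6a. Ugt1a1, the bilirubin enzyme, had 2 and 0, both of the genomic class, and it overlaps the other Ugt1a genes on the same strand. The 10 Ugt2 genes gave 1 read, and Ugt8a gave none.

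**Figure D2:**
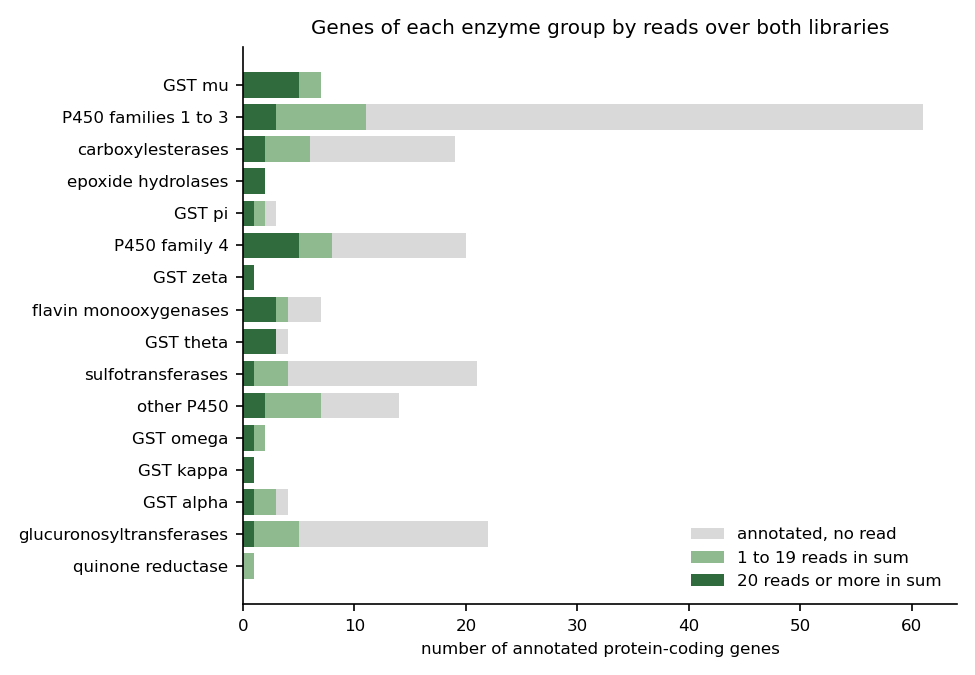
Number of annotated protein-coding genes of each enzyme group that had no read, 1 to 19 reads, or 20 reads or more over both libraries. All 7 mu-class glutathione S-transferases were read, against 11 of 61 P450s of families 1 to 3 and 5 of 22 glucuronosyltransferases.

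**Figure D3:**
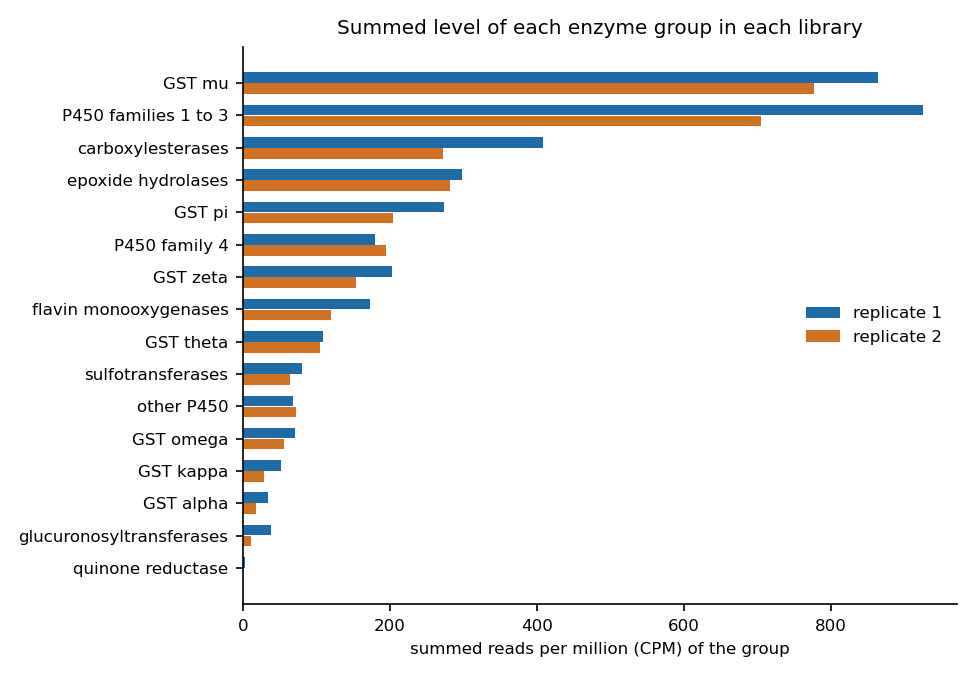
Summed level of each enzyme group in each library, in CPM from 0; each bar is 1 library. Mu-class glutathione S-transferases and P450s of families 1 to 3 led, at 821 and 815 CPM on average, and most groups were higher in replicate 1.

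The question put to the pair of libraries was how far these levels differ between them. The 32 of the 67 genes whose reads in both libraries came to 20 or more were each compared by a two-sided exact binomial test against totals scaled by TMM, a factor that sets the typical gene equal. Calls needed a Benjamini-Hochberg adjusted p under 0.05 over all 8063 genes tested and at least a 2-fold ratio. None of the 32 was called, against 3.41% of all genes tested, or 2.36% in the direction of a lower level in replicate 2. At an unadjusted p under 0.05, 11 of the 32 passed, against 21.7% of all genes.

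By adjusted p alone 4 of 32 passed, near the 11.1% of all genes, and all 4 were lower in replicate 2 (7.53% of all genes). For Ces1d the levels of 366 and 228 CPM gave a log2 ratio of -0.78 (replicate 2 over replicate 1, with 1 CPM added; exact binomial test, adjusted p = 1.08e-06). For Cyp2e1 the log2 ratio was -0.46 (adjusted p = 1.24e-05). For Fmo1, at 135 and 86.8 CPM, it was -0.73 (adjusted p = 0.0183). For Gstp1, at 264 and 195 CPM, it was -0.54 (adjusted p = 0.00967). The level of each was thus higher in replicate 1, by less than 2-fold. In bulk tissue, fewer cells of a type and less RNA per cell cannot be told apart.

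Of the 32, 24 had a lower level in replicate 2, against 49.2% of all genes tested. Their median log2 ratio was -0.43, and that of all genes was 0.01. For the 13 tested glutathione S-transferases the median was -0.50, with 10 lower, and for the 10 tested P450s it was -0.16, with 6 lower. Of 5 tested genes of P450 family 4, 3 were higher in replicate 2. Gstm7 and Ephx1 were nearly level, with log2 ratios of 0.01 and -0.08. Gstt3, at 25.5 and 36.5 CPM, and Cyp4f16, at 12.1 and 22.8 CPM, leaned the other way without passing the test.

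Transcript length moved with the ratio. Replicate 2 held fewer reads of short transcripts across all genes: the median log2 ratio was -0.64 for 730 genes under 1000 bases and 0.10 for 6271 genes of 1500 bases or more. The tested genes of the set are short, with a median length of 1792 bases against 2575, and the 4 under 1000 bases had a median of -0.96. With the length trend removed, 21 of 32 were lower, with a median of -0.20, and 3 passed by adjusted p, against 5.75% of all genes. Ces1d (-0.79), Fmo1 (-0.79) and Cyp2e1 (-0.42) kept their ratios and their calls by adjusted p, whereas Gstp1 went to 0.02 (exact binomial test, adjusted p = 1.0). For the glutathione S-transferases the median went to -0.11, with 7 of 13 lower.

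Markers of other cells also moved with the replicates. All 8 tested adipocyte markers had lower levels in replicate 2, and 5 of them were called. The median log2 ratio of these markers was -1.32, or -0.92 with the length trend removed, and the list of 9 took 1.83% and 1.02% of the reads. All 5 red blood cell markers were lower, 4 of them called, with a median of -1.39, or -0.75 with the trend removed. Of 7 tested connective tissue markers 6 were lower, 2 of them called, with a median of -0.65, or -0.81 with the trend removed. Endothelial markers leaned the other way: 4 of 5 tested were higher in replicate 2, 1 of them by adjusted p and none called, with a median of 0.41, or 0.24 with the trend removed. The 3 tested macrophage markers were lower, none by adjusted p, with a median of -0.16. Cortex markers took nearly equal shares in sum, given above, but the 6 genes went in opposing directions. By adjusted p, 2 were lower in replicate 2, led by Cyp11a1 (log2 ratio -0.51), and 4 were higher, led by Cyp11b2 (0.59). None was called, and their median was 0.22, or 0.05 with the trend removed. Chromaffin markers took 1.13% and 1.24%, with 3 lower and 2 higher in replicate 2, none called. The part of adipocyte, blood, connective tissue or endothelial RNA in the ratios of Ces1d, Cyp2e1, Fmo1 and Gstp1 was not tested.

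**Figure D4:**
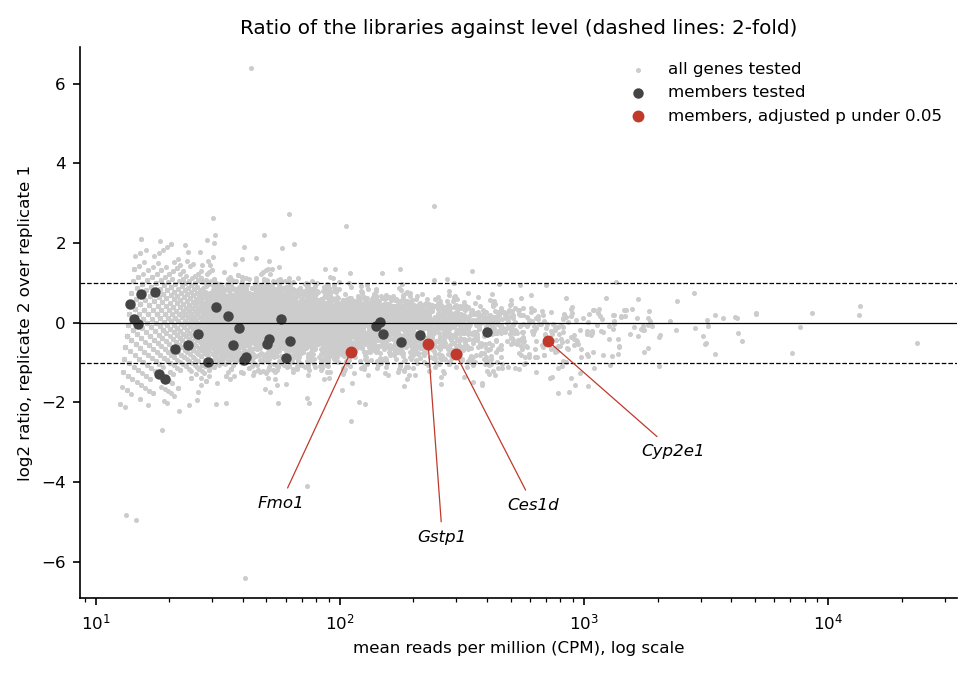
Log2 ratio of replicate 2 over replicate 1 (TMM-scaled CPM with 1 added) against mean level on a log axis for all 8063 genes tested (small points) and the 32 tested genes of the set (members). The genes that passed by adjusted p alone, Ces1d, Cyp2e1, Fmo1 and Gstp1, lie below 0 and within the dashed 2-fold lines.

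Reads of the 67 genes fell on annotated transcripts in 83.5 ± 0.355% of cases, against 79.2 ± 0.299% for all annotated genes. Incomplete matches, which lack part of an annotated exon chain, made up 6.07 ± 0.361%, new combinations of known splice sites 4.21 ± 0.370%, transcripts with a new splice site 3.55 ± 0.528% and the genomic class 2.66 ± 0.183%. The abundant genes dominate these shares. Over the 32 genes with at least 20 reads the median annotated share was 88.4%, from 4.55% to all reads.

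Most genes used 1 transcript. Usage was compared where both libraries gave a gene 20 reads or more, which was so for 20 genes of the set and 5334 in all. The most-read transcript held a median of 88.1% of the reads of the 20, against 79.2% over the 5334, and in 6 of the 20 it held 90% or more. Cyp2e1-201, of 9 exons, held 93.0 ± 0.210% of Cyp2e1 reads, Gstp1-201 held 94.7 ± 0.902% and Gstm1-201 held 91.7 ± 2.31%. Ces1d-201, of 14 exons, held 89.5 ± 0.656%. The share of the most-read transcript was called different between the libraries in 0 of the 20 (two-sided Fisher's exact test, lowest adjusted p = 0.759), against 0.675% of all genes. None passed at an unadjusted p under 0.05, against 7.2% of all genes. The widest gap was in Gstt2, at 76.9% and 56.0% for Gstt2-201, from 26 and 25 reads.

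**Figure D5:**
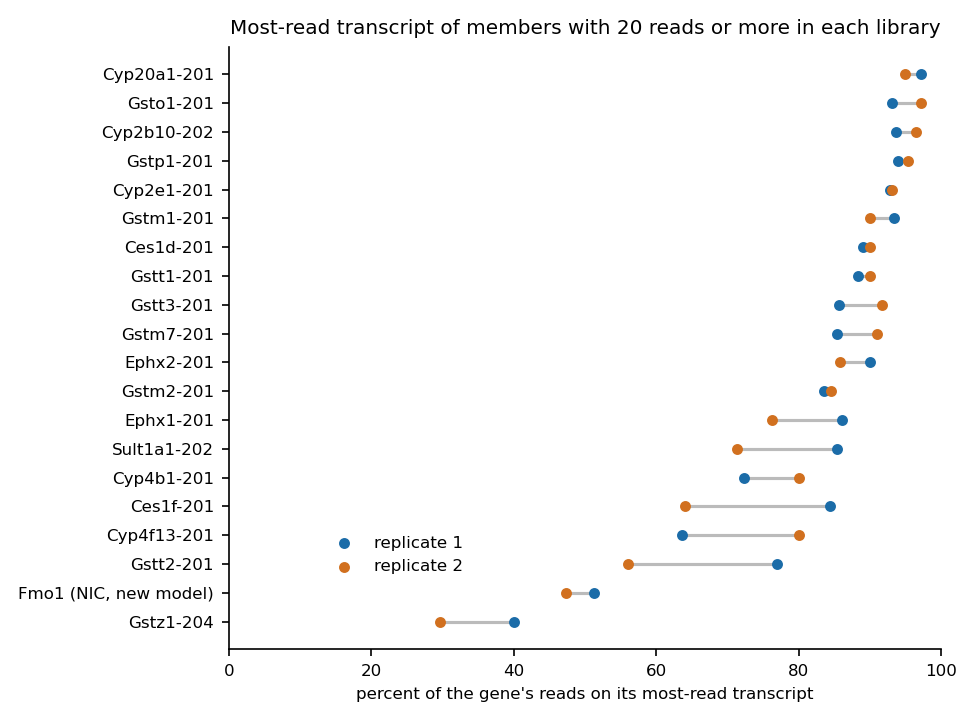
Percent of a gene's reads on its most-read transcript in each library, for the 20 genes of the set with 20 reads or more in both libraries (NIC, new combination of known splice sites). Most genes lie above 80% in both libraries, while Fmo1 and Gstz1 lie lowest, with no transcript above 51.4%.

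The most-read form of Fmo1 was a transcript that the annotation does not hold. It has 9 exons and held 57 of 111 and 27 of 57 reads, or 51.4% and 47.4%. It joins the first intron of Fmo1-202 and Fmo1-204 (chr1:162859563-162859800) to the remaining exons of Fmo1-201. Fmo1-201 itself had 6 and 3 reads. Annotated transcripts are listed with their annotated ends, and new models with their own. In 87.9 ± 2.72% of the spliced reads the model's 5′ end lay between 162859562 and 162859969, and in 6.75 ± 0.379% it lay at the annotated upstream start of Fmo1-201, 162866610. Of these 97 and 49 reads, 47 were incomplete matches, led by one of 8 exons with 30 and 16 reads. The 5′ end of that model, 162859714, lies inside the first intron of the new form. It thus does not use the junction printed above and is not shown to be a shortened copy of the new form. The junction printed above lies before the coding sequence, with 6 exon bases between it and the annotated start codon, so the coding exons are those of Fmo1-201.

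Gstz1 was split between annotated transcripts with different first exons. Gstz1-204 had 67 and 30 reads (34.9 ± 7.37%) and Gstz1-201 had 47 and 37 (32.4 ± 6.003%), so their order differed between the libraries. The share of Gstz1-204 did not pass the usage test (two-sided Fisher's exact test, adjusted p = 0.801). By annotated length Gstz1-204 is also the shorter, at 724 bases against 1656, and replicate 2 held fewer reads of short transcripts. The lengths of the reads themselves are not shown, as annotated transcripts are listed with their annotated ends. The part of length in this order was not tested. By 5′ end, 55.0 ± 3.99% of the spliced reads belonged to the downstream start at 87157608 and 40.5 ± 7.27% to the upstream starts at 87147718 to 87147772. The downstream group includes an incomplete match of 8 exons with 11 and 9 reads. It holds only introns of Gstz1-201 and so lacks the junction of Gstz1-204 printed above. The first exons of Gstz1-201 and Gstz1-204 each carry a start codon, visible in the junction sequences above. In Gstz1-201, 15 coding bases precede the junction, and in Gstz1-204, 12. A further 20 and 9 Gstz1 reads were of the genomic class, and Pomt2, which overlaps Gstz1 on the other strand, had 4 and 12 reads.

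The less abundant Gstm4 and Cyp2d22 used a new splice donor, the site where an intron begins. In Gstm4, 9 and 7 reads (46.5 ± 10.4%) ended the exon before the fourth intron 15 bases early, against 9 and 4 on Gstm4-201. The bases left out, gcaagcacaacctgt, lie within the coding sequence and their number is a multiple of 3, equal to 5 codons. In Cyp2d22, 9 and 5 reads (62.5 ± 17.7%) used a donor 6 bases early in the first intron (chr15:82376042-82380077) and left out gtaaag, before the coding sequence. The annotated form of that junction, Cyp2d22-201, had 1 read. Both rest on few reads.

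Smaller forms were also seen, in these and other genes. In Ephx1, 5 and 6 reads joined the first exon of Ephx1-203 to the exons of Ephx1-201, before the coding sequence, and 7.96 ± 2.42% of spliced reads belonged to that upstream start against 89.0 ± 4.20% at the start of Ephx1-201. In Gstt2 a model of 4 exons, classed as a new combination, had 3 and 5 reads. Its 3 introns all occur in Gstt2-201, and 1 intron of Gstt2-201 is missing from it. Other new combinations had 5 and 1 reads in Sult5a1, 3 and 4 in Gstz1 and 4 and 1 in Cyp4f13. In Fmo1 further ones had 2 and 2 reads, and 3 and 1. Of all 187 new spliced models of the 67 genes, 29 were found in both libraries, and 4 had at least 5 reads in each.

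The partners of these enzymes were taken from a list of 47 genes, of which 41 were read and 29 tested. No partner passed the call, against 3.41% of all genes tested, and their median log2 ratio stood at 0.00. By adjusted p alone 3 of the 29, Mgst1, Cyb5a and Fdx1, were lower in replicate 2, against 7.53% of all genes. Another 2, Cyb5r3 and Abcb1b, were higher, against 3.55% of all genes. With the length trend removed, Cyb5a went from -0.49 to 0.06 and Fdx1 from -0.21 to 0.29, so the direction of both turned. Electron donors were abundant: Fdxr and Fdx1, which feed the mitochondrial P450s of steroid synthesis, stood at 1421 ± 191 and 1079 ± 59.6 CPM. Por, which feeds the microsomal P450s, stood at 303 ± 15.01 CPM, and Cyb5r3 and Cyb5b at 622 ± 128 and 442 ± 35.4 CPM. Abcb1b, a multidrug export pump, was the most abundant partner at 5063 ± 877 CPM, with a log2 ratio of 0.25 (exact binomial test, adjusted p = 2.89e-12) that went to 0.07 with the length trend removed. Mgst1, a membrane glutathione S-transferase outside the naming rule, had 702 and 342 reads and a log2 ratio of -0.81 (exact binomial test, adjusted p = 3.32e-16), which went to -0.46 with the length trend removed.

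The receptors that sense foreign compounds were low or absent. Nr1i2 (PXR) and Nr1i3 (CAR), the receptors that induce Cyp3a and Cyp2b genes in liver, had no read, and Ahr, the dioxin receptor, had 2 and 1. Nfe2l2, the regulator of antioxidant response genes, had 75 and 61 reads, at 91.9 ± 1.33 CPM, with a log2 ratio of -0.07.

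Promoters were searched for an antioxidant response, a dioxin response and an NR5A1 motif, and not for motifs of Nr1i2 or Nr1i3. Windows held 300 bases around RefSeq starts, 250 before and 50 after, and both strands were searched (GRCm38.p6). A window was found for 55 of the 67 genes, 67 windows in all. The antioxidant response element core TGACNNNGC was in 7 (10.4%), against 12.4% of all windows. The dioxin response core GCGTG was in 14 (20.9%), against 32.4%, and AAGGTCA, a site of the adrenal regulator NR5A1, was in 5 (7.46%), against 4.72%. The matches upstream of a RefSeq start in mu-class genes and that in Gstk1 are shown with the motif in capitals, as it reads on the gene's strand. The Gstm7 match precedes a RefSeq start but lies downstream of the annotated start of Gstm7-201, at 107931817 on the minus strand. It is thus within the span of the most-read Gstm7 transcript. In Gstm5 the first GCGTG match, on the opposite strand, overlaps the TGACNNNGC match.
Gstm7, chr3:107931727-107931751, 129 bases before the start: tgaagaccTGACAAAGCgaagccaa
Gstm5, chr3:107895804-107895828, 42 bases before the start: ccgcccacTGACCACGCggagggcg
Gstm5, chr3:107895808-107895828, on the opposite strand, 38 bases before the start: ccactgacCACGCggagggcg
Gstm5, chr3:107895675-107895695, on the opposite strand, 171 bases before the start: acatgactCACGCttcccggg
Gstm1, chr3:108018037-108018057: ctgtttcaGCGTGtgcaaaac
Gstk1, chr6:42245786-42245808, on the opposite strand: tctggatcTGACCTTccccttta
A match is a description of letters and not a binding site. The levels of these 4 genes ranged from 402 CPM for Gstm1 to 28.7 CPM for Gstm5.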

How the data were processed

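Long-read RNA sequencing gave 1 table of read counts per transcript model for each of 2 libraries. The authors deposited whole-number counts without normalization, and exon coordinates and model lengths, per the file headers. Per the deposited notes, reads were aligned to mm10 and annotated with GENCODE M21. TALON wrote the models, per the deposited annotation. The sources used here do not name the aligner or say how strand was set.

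Counts were summed per gene over every TALON class and divided by totals without spike-ins (824225 and 656826 reads) to give CPM. Gene coordinates were taken from GENCODE M21. The quasi-likelihood test needs replicated groups and could not be fitted, so a two-sided exact binomial test was run on each gene whose summed reads reached 20, with TMM factors (edgeR 4.0.16, R 4.3.3). The length trend was a lowess fit of the ratio on transcript length. Transcript shares were compared by Fisher's exact test where both libraries gave a gene 20 reads or more. New models were matched between libraries by intron chain. Both tests were tested on simulated data. Alternatives were other scalings (DESeq2 1.42.0 size factors), read classes, read minimums, the length trend, and each replicate alone.

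The genes named are the 30 of highest mean CPM, the most abundant of each group, a fixed list of 27, the 10 most abundant new spliced transcripts, and the 6 most abundant partners with 5 regulators and donors. Others were named after their values were seen. The genes, lists and tests were chosen with earlier results of these data known. Counting error alone is covered by the intervals and floors, as the files hold no molecular identifiers. Python 3.11.15, scipy 1.17.1, pandas 2.3.3, statsmodels 0.14.6 and Biopython 1.88 were used.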

Additional observations from a re-analysis of the deposited data

Results flagged for a closer look

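Reads outside the 67 genes were found on Cyp21a2-ps, an unprocessed pseudogene of the 21-hydroxylase that the requirement for protein-coding genes left out. It had 123 reads in replicate 1 and 220 in replicate 2, above the 3 reads that a count of 0 allows, with a log2 ratio of 1.06 (exact binomial test, adjusted p = 1.43e-09). Its parent gene is one of the steroid genes left out by name, and whether reads were exchanged between the pair was not tested.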

How the results depend on the processing

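Under each scaling, read minimum, read class and length setting tried, none of the tested genes of the set was called at 2-fold. All genes tested gave 133 to 304 such calls. By adjusted p alone 4 of 32 passed in the main setting (all genes: 893 of 8063). Other scalings gave 3 of 32 with the library total (941 of 8063) and 6 of 32 with DESeq2 size factors (900 of 8063). Read minimums of 10 and 1 gave 4 of 40 (856 of 9977) and 4 of 67 (723 of 16457). Without the genomic class 5 of 30 passed (890 of 7830), and with only annotated transcripts 3 of 26 (718 of 6605). Removing the length trend gave 3 of 32 (464 of 8063). Ces1d and Cyp2e1 passed under each of these settings. Gstp1 was lost with the length trend removed, and Fmo1 was lost with the library total. With only annotated transcripts Fmo1 had too few reads to be tested, as 5.95% of its reads over both libraries lay on annotated transcripts. The set holds 37 genes where both libraries must give 5 reads or more. The annotated share was 88.4% as a median over genes. TMM moved the log2 ratio of all genes by -0.10 against the library total, and DESeq2 factors by -0.15. Some ratios changed sign. Removing the length trend moved Gstp1 from -0.54 to 0.018, Gstm2 from -0.31 to 0.097 and Gstm1 from -0.23 to 0.048. Ratios nearer 0 also turned: Cyp2d22 to 0.060 and Ephx1 to 0.021 (library total), Gstm7 to -0.040 (DESeq2) and to -0.0022 (no genomic class), and Gstt2 to -0.14 (only annotated transcripts). The cause was not tested. With 1 library alone the share of reads on the 67 genes was 0.306% to 0.378%. No paired analysis was possible because there is only 1 group. At this depth, genes under about 13.5 CPM had too few reads to be tested.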
